A study of Mus musculus with 6 samples.

Results

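The neuropeptide genes of the adrenal medulla were examined on 6 arrays of adrenal RNA from adult female C57Bl/6J mice. The list held 8 genes, chosen by name: Npy, Penk, Gal, Cartpt, Vip, Adcyap1, Tac1 and Resp18. A gene was followed where a probe set (the group of short DNA probes that measures a transcript) carried its symbol and no other, which gave 5 of the 8 genes with 1 probe set each, of 15384 genes named in this way in the table. Vip, Adcyap1 and Tac1 were not analysed here. The control group (3 arrays) came from control offspring, and the CGP group (3 arrays) from offspring whose mothers took the NMDA receptor antagonist CGP 39551 by mouth at 5 mg/kg body weight from pregnancy to the end of weaning. Both groups were female and 21 weeks old when the glands were frozen, and RNA of 18 mice was pooled in each. The labels do not say whether the 3 arrays of a group carried separate pools, so the p-values rest on the spread among arrays alone and this spread may be technical.

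Chromaffin cells of the medulla store catecholamines in dense-core granules together with peptides, which are cut from larger precursors inside the granule and leave the cell with the amines upon splanchnic nerve stimulation. Neuropeptide Y (Npy) constricts vessels and modulates catecholamine release, proenkephalin (Penk) is the source of the opioid enkephalins, galanin (Gal) acts on galanin receptors in neurons and endocrine cells, and Cartpt encodes the cocaine- and amphetamine-regulated transcript peptides. Resp18 is a protein of the regulated secretory pathway and not a classical transmitter. Several of these genes are also expressed by neurons, and many neuropeptide genes respond to cyclic AMP through a DNA element termed CRE.

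The 5' ends of 3 members are shown because Gal and Resp18 had the greatest differences among the measured members and because Cartpt carried the complete CRE letters. Each stretch covers 300 bases, the 250 bases before the annotated start and 50 from it, read 5' to 3' on the strand of the gene, from RefSeq on build GRCm38.p6: Cartpt from chr13:99900634-99900933, Gal from chr19:3414495-3414794 and Resp18 from chr1:75278366-75278665, all on the minus strand. Capitals mark the CRE or its core TGACG.
Cartpt: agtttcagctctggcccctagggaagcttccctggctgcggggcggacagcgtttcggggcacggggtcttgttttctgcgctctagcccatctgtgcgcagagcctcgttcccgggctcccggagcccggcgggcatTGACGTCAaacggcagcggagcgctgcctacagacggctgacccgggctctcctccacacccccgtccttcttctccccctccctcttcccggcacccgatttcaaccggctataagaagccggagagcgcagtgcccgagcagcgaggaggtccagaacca
Gal: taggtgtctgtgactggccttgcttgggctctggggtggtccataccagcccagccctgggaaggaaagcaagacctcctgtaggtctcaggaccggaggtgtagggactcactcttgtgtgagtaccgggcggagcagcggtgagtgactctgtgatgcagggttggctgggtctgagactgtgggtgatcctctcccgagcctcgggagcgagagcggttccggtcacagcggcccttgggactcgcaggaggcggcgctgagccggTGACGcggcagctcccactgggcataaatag
Resp18: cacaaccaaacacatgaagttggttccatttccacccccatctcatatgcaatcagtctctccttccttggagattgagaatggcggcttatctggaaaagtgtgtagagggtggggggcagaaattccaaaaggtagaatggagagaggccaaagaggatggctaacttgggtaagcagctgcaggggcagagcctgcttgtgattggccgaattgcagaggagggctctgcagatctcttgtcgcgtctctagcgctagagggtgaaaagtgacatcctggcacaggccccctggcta

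Letters were searched on both strands. The palindrome TGACGTCA was found in Cartpt, starting at position -112 (position 1 is the first transcribed base), and in 1.79% of the 32851 promoters of the same length in that table. Its core TGACG, which the palindrome contains on either strand, was found in 20.8% of all promoters and, among the measured members, in Cartpt and in Gal, where it started at position 20. Neither Npy nor Resp18 held it within the window. Of the members not analysed on the arrays, Vip, Tac1 and Adcyap1 each held the core. The AP-1 letters TGANTCA (7.81% of all promoters) and the letters TATAAA (13.6%) were found in none of the measured members with an entry, Npy, Gal, Cartpt and Resp18. Penk had no entry in the table. A match describes the letters only.

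The labelled tissue was checked first. All 12 cortical and all 21 chromaffin markers found in the table lay above background on every array of at least 1 group. Background was set per array from 126 probe sets of sensory receptors (olfactory, vomeronasal and trace amine), whose 75th percentile lay at 6.42 to 6.65 on the log2 scale. The mean of the 21 chromaffin markers was 9.83 to 9.85 on the control arrays and 9.78 to 9.80 on the CGP arrays, so that these ranges did not overlap but differed by little. Markers of other tissues moved far more between the groups. All 17 tested hepatocyte genes were lower in CGP and passed the test described below. The summed level of the list was 15.22 to 15.24 (log2) in controls and 14.49 to 14.52 in CGP. All 15 tested adipocyte genes were higher in CGP and 13 of them passed, with summed levels of 14.94 to 14.97 and 15.43 to 15.44. No marker of either list that was tested lay at background in both groups. Their part in the values below was not tested. Over all probe sets tested, control array 1 lay nearer to each CGP array than to control array 2. The standard deviation of the difference was 0.174, 0.160 and 0.163 to CGP arrays 1, 2 and 3, and 0.177 to control array 2. The array nearest to control array 1 was control array 3 (0.137). The members with the lowest p-values are therefore also given without control array 1 and without control array 2.

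All 5 measured members lay above background on all 6 arrays, and none passed the test between the groups (limma, adjusted p under 0.05, all 16034 probe sets that passed a filter on low values). Of all probe sets tested, 3.53% passed, 311 with higher and 255 with lower CGP values. The 566 probe sets that passed became 1099 without control array 1, 364 without control array 2, 269 without control array 3, and 320, 236 and 237 without CGP array 1, 2 and 3, and no member passed in any of these. At an unadjusted p under 0.05 stood 3 of the 5 members, Gal, Resp18 and Penk, where the share over all probe sets was 19.3%. The 5 differences had a median of -0.09 on the log2 scale, beside -0.01 for all probe sets tested, with 4 below 0 and 1 above. In pooled whole glands, a lower value cannot tell fewer cells of a type from less RNA per cell.

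Npy read 13.51, 13.50 and 13.53 on the control arrays and 13.40, 13.49 and 13.45 on the CGP arrays (log2). The CGP values all lay below the control values, by 0.0093 at the narrowest point, which is less than the SD within either group (0.016 in controls, 0.043 in CGP, n = 3 arrays each). The mean difference was -0.07 (SE 0.05, limma adjusted p = 0.460), and the 95% interval in fold ran from 0.889 to 1.03 times the control level. Npy stood 6.85 to 7.07 above the background of its array.

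Penk read 9.87, 9.79 and 9.84 in the controls and 10, 9.96 and 9.90 in the CGP group. It was the only member with higher CGP values, and here too the groups did not overlap. The difference was 0.12 (SE 0.05, limma adjusted p = 0.231), a fold of 1.09 with a 95% interval of 1.005 to 1.175 (unadjusted). Without control array 1 it was 0.14 and without control array 2 it was 0.10.

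Gal showed the greatest difference among the members. Its values were 11.17, 11.03 and 11.22 on the control arrays and 11.00, 10.93 and 10.89 on the CGP arrays, with control array 2 close to the highest CGP array. The difference was -0.20 (SE 0.06), or 0.869 times the control level with a 95% interval of 0.788 to 0.958 (unadjusted). It did not pass the test over all probe sets (limma adjusted p = 0.127), and 10.3% of all probe sets tested differed by more in absolute value. Without control array 2 the difference was -0.26 (limma adjusted p = 0.0737) and without control array 1 it was -0.19 (limma adjusted p = 0.142). Gal passed with a variance trend and robust prior (limma adjusted p = 0.0158) and with array weights, where the difference itself was -0.25 (limma adjusted p = 0.024). It did not pass in any other alternative. Apart from the 1.2-fold minimum, the limma adjusted p reached 0.338 without CGP array 3. It reached 0.742 with arrays centred on the median of the sensory receptors, and was 0.0844 with a filter at a log2 value of 7.

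Resp18 differed in the same direction as Gal. It read 10.06, 9.90 and 10.02 in the controls and 9.83, 9.82 and 9.80 in the CGP group, with control array 2 again the lowest of its group. The difference was -0.17 (SE 0.05, limma adjusted p = 0.139), or 0.887 times the control level, with a 95% interval of 0.812 to 0.968 (unadjusted). It passed with a variance trend and robust prior (limma adjusted p = 0.0361) and with array weights (0.0348). Without control array 2 the difference was -0.22 (limma adjusted p = 0.074) and without control array 1 it was -0.14 (limma adjusted p = 0.175). Resp18 did not pass in any other alternative. Apart from the 1.2-fold minimum, the limma adjusted p reached 0.337 without CGP array 2. It reached 0.862 with arrays centred on the median of the sensory receptors, and was 0.0869 with quantile normalisation.

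Cartpt was the only measured member whose groups overlapped. Its values were 8.43, 8.56 and 8.58 in the controls and 8.50, 8.44 and 8.37 in the CGP group, and the difference was -0.09 (SE 0.06, limma adjusted p = 0.457). Measured from the background of its own array, Cartpt stood at 1.91 to 2.02 on all 6 arrays.

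**Figure D1:**
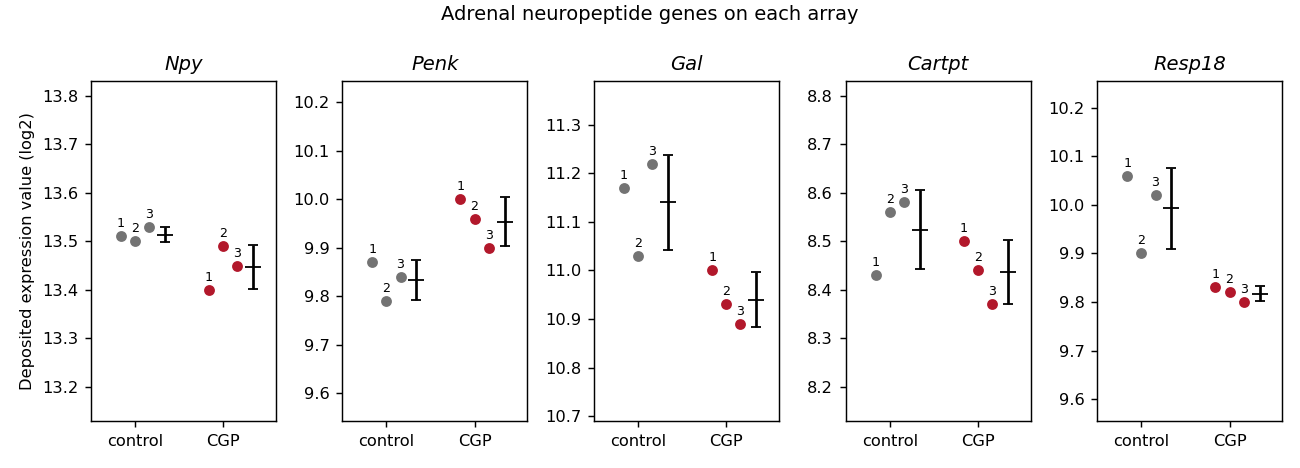
Deposited log2 values (vertical axes, each spanning the same range) of the 5 measured neuropeptide genes by group, 3 arrays of each (control in grey, CGP in red), with array numbers beside the points and group means and SDs in black. Gal and Resp18 sit lower and Penk higher on every CGP array, the Npy groups are parted by 0.0093 alone, and the Cartpt groups overlap.

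In 4 of the 5 members the groups did not overlap, 3 of them with lower CGP values and 1 with higher ones. Over all probe sets tested, every CGP array lay below every control array in 12.6% and above in 13.7%. The members were read against these shares without a test, since they were chosen with results of these arrays known.

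Within an array, the log2 ratio of 2 members leaves out what all its probe sets share. The ratio of Penk to Gal, set to a mean of 0 in the controls, was 0.00, 0.07 and -0.07 there and 0.31, 0.34 and 0.32 on the CGP arrays. That of Penk to Resp18 was -0.04, 0.06 and -0.02 in the controls and 0.33, 0.30 and 0.25 in the CGP group. In contrast, the ratio of Gal to Resp18 differed by -0.03 between the groups, with an SD of 0.04 within them, and all 6 values lay between -0.06 and 0.05. These pairs were picked for their values, were not tested and repeat the opposite signs of Penk and of the other members given above. They do not show which partner changed.

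Centring on the chromaffin markers shifts the difference of every gene by the same amount. Penk, the only member above 0, thus moved further from 0 and the other members nearer to it. With each array centred on the mean of its 21 chromaffin markers, Penk differed by 0.17 (95% interval 0.06 to 0.28, limma adjusted p = 0.0784), Gal by -0.16 (-0.29 to -0.02, limma adjusted p = 0.166) and Resp18 by -0.13 (-0.25 to -0.002, limma adjusted p = 0.211). Npy (-0.02) and Cartpt (-0.04) were closest to 0, and the groups overlapped for both and also for Gal. None of the 5 passed on this scale either, where 997 of the 16034 probe sets tested passed, against 566 on the deposited scale. On the deposited scale, 0 of the 21 chromaffin markers passed the test (4 at an unadjusted p under 0.05), 16 of them were below 0 and the median was -0.05. Th, the enzyme that limits the rate at which catecholamines are made, differed by 0.01, Dbh, which makes noradrenaline, by -0.01, Pnmt, which makes adrenaline, by -0.05, and the granule protein Chga by -0.001. Its relative Chgb differed by 0.09, with all CGP arrays above the controls (limma adjusted p = 0.274). The smallest adjusted p of the list was that of Gata3, a transcription factor of chromaffin cells (-0.16, limma adjusted p = 0.111). Ddc, Chrnb4, Insm1, Gata2, Phox2a, Ret and Syt1 were named after their values were seen. The decarboxylase Ddc, which makes dopamine, differed by -0.13, the nicotinic receptor subunit Chrnb4 by -0.15 and the transcription factor Insm1 by -0.13. For these 3, Gata3, Gata2 and Phox2a every CGP array lay below every control array. For Chgb, Ret and Syt1 every CGP array lay above. Over all probe sets tested, these shares were 12.6% and 13.7%.

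**Figure D2:**
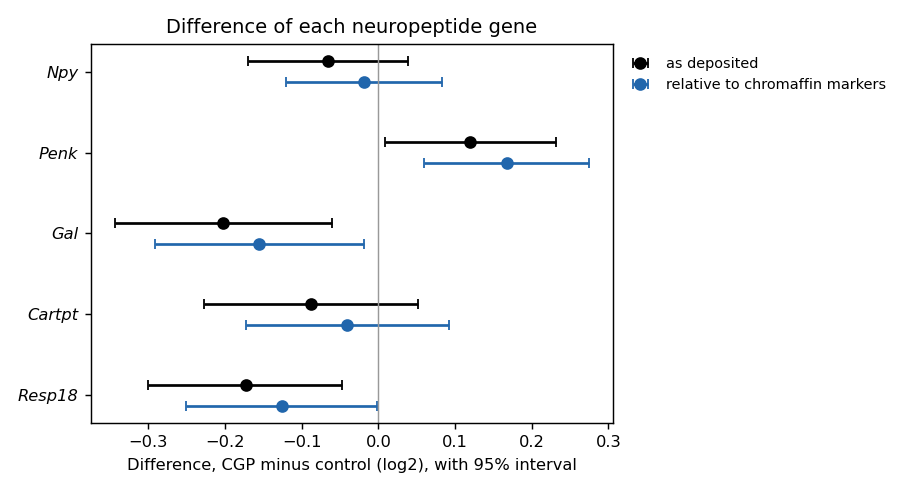
Difference between CGP and control arrays (horizontal axis, log2, with the unadjusted 95% interval from limma) of the 5 measured neuropeptide genes (vertical axis), from the deposited values (black) and after centring each array on 21 chromaffin markers (blue). Centring moved all 5 by the same amount before rounding, such as Penk from 0.12 to 0.17 and Gal from -0.20 to -0.16. No member passed the test over all probe sets on either scale.

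Receptors of these peptides and of related ones (such as Oprl1) were followed next. Of 18 listed receptor genes 11 were tested, 7 of them above background on all arrays of at least 1 group, and 0 passed the test. Of the 7, Npy2r, Vipr1 and Tacr1 lay under the 95th percentile of the sensory receptors (7.37 to 7.72) on every array. At an unadjusted p under 0.05 stood 2, Vipr1 and Oprl1, of which Oprl1 lay under background on every array. Adcyap1r1, the PACAP receptor, read 9.18 ± 0.05 (mean log2 and SD of 3 arrays) in the controls and 9.15 ± 0.02 in the CGP group, and the tachykinin receptor Tacr2 read 11.64 ± 0.02 and 11.64 ± 0.03. The neuropeptide Y receptor Npy2r differed by -0.03, the galanin receptor Galr3 by -0.17, the opioid receptor Oprd1 by -0.11 and the substance P receptor Tacr1 by -0.04, all with overlapping groups. Vipr1, a receptor of VIP and PACAP, had 2 probe sets that disagreed. The brighter of these differed by -0.25 without overlap (limma adjusted p = 0.104) and passed with array weights (limma adjusted p = 0.0246), and the other differed by -0.01. Npy1r, Galr2, Oprm1 and Oprl1 lay under background on every array, so no difference was read from them.

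Most other peptide precursors had lower CGP means, though none passed the test. Of 36 listed genes 28 were tested and 0 passed (4 at an unadjusted p under 0.05), and 16 of the 28 lay above background on all arrays of a group. The median difference of the 28 was -0.10 and 26 of them were below 0, as were 14 of the 16 above background (median -0.09). Several of the 16, such as Pnoc (7.10 in controls, 6.91 in CGP), lay under the 95th percentile of the sensory receptors (7.37 to 7.72). The sign was also uneven among dim probe sets in general. Among all probe sets with a mean log2 value from 6 to 8, 60.3% were below 0 with a median of -0.03, among those of 8 or more 49.7% with a median of 0.0008, and among the 95 tested sensory receptor probe sets 69.5% with a median of -0.03. Ucn2, which encodes urocortin 2, had the smallest adjusted p (0.0641 by limma, difference -0.24), but lay at or under background in both groups. Pnoc, the precursor of nociceptin, and Vgf, a granule protein and peptide precursor of neuroendocrine cells, both named after their values were seen, differed by -0.19 and -0.13 and did not pass.

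Genes that cut, package or release peptides did not share a direction. Of 21 listed genes 18 were tested and 0 passed (3 at an unadjusted p under 0.05), with a median difference of 0.01. The smallest adjusted p was that of Pcsk1n, whose product proSAAS inhibits the prohormone convertase Pcsk1. Pcsk1n read 11.44, 11.47 and 11.50 in the controls and 11.31, 11.26 and 11.15 in the CGP group, a difference of -0.23 (SE 0.05, limma adjusted p = 0.0659). It passed with a variance trend and robust prior (limma adjusted p = 0.00264), with array weights (0.0217) and with a filter at a log2 value of 7 (0.0397). Named after their values were seen, Pcsk1 itself read 8.58, 8.42 and 8.64 and then 8.69, 8.74 and 8.68, a difference of 0.16 (limma adjusted p = 0.240), and the vesicle protein Rab3a differed by -0.19 (limma adjusted p = 0.101). For Pcsk1n, Rab3a, Ptprn and Qpct every CGP array lay below every control array, and for Pcsk1, Chgb, Cpe and Pam above. Qpct lay under background on every array, and Ptprn, Qpct, Cpe and Pam were also named after their values were seen. Over all probe sets tested, these shares were 12.6% and 13.7%.

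**Figure D3:**
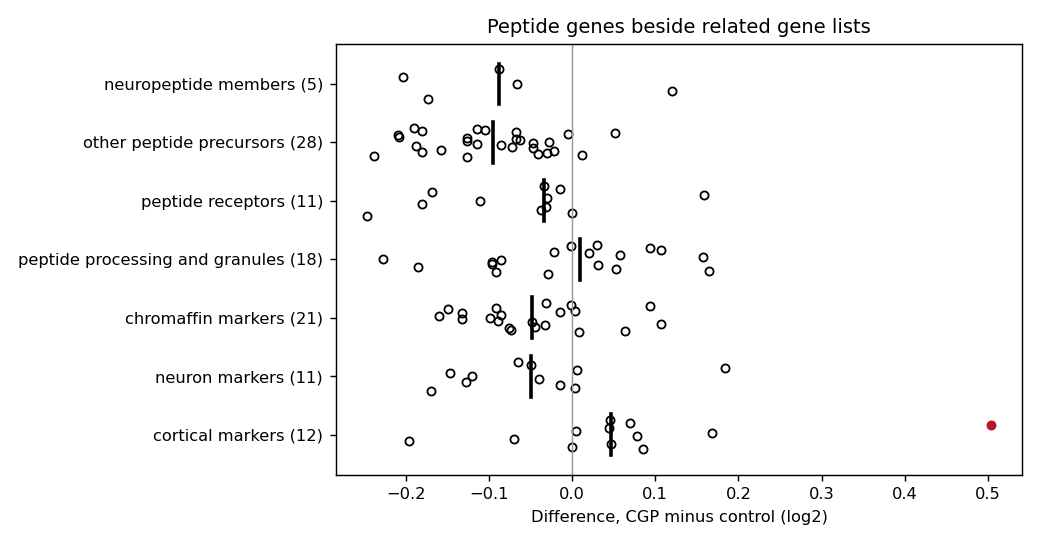
Difference between CGP and control arrays (horizontal axis, log2) of the tested genes of 7 lists (vertical axis, each with its number of genes). Hepatocyte, adipocyte and Schwann and sustentacular genes, where 17, 13 and 2 passed, are not drawn. Filled red points passed the test, open ones did not, and black bars give medians. Cyp11b2, a cortical marker that rose by 0.50, is the single filled point among the lists drawn, and their medians run from -0.10 for the other peptide precursors to 0.05 for the cortical markers.

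Likeness across arrays was given for Npy and Penk as Pearson's r over the 6 arrays among all probe sets tested. The 5 nearest to Npy were Irf1, Med29, Rhbdd1, Mir127 and Prg3 (r from 0.989 to 0.992), and the 5 nearest to Penk were Dgkh, Rilpl2, Gcfc2, U2af2 and Ccdc6 (0.987 to 0.993). With so few arrays, 196 probe sets had an r over 0.9 with Npy and 404 with Penk, so these names describe the arrays only.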

How the data were processed

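Adrenal RNA was hybridised to 6 Affymetrix whole-transcript arrays, 3 per group, grouped and numbered by their titles. The authors deposited log2 expression values for 25150 probe sets. The submitters' processing notes name RMA, which corrects background, quantile normalises and summarises probes, and Partek, without versions. RMA pulls arrays to a shared distribution, so differences common to most probe sets are lost. The annotation they used is not stated in the sources used here. Of the probe sets, 16769 had 1 gene symbol in the platform annotation, 1031 several and 7350 none. Entrez numbers of 16723 were found in RefSeq (GRCm38.p6) and changed no symbol. Arrays have no read depth, and their number limits the precision.

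The 16034 single-symbol probe sets that reached log2 6 on 3 or more arrays were fitted by lmFit and eBayes (limma 3.58.1, R 4.3.3; two-sided, no covariates), with Benjamini-Hochberg adjustment over all of them. The script was tested on simulated data with added changes larger than any member difference. That test cannot speak to changes as small as those of the members. Lists used the brightest probe set per gene. Named were all members, Th, Dbh, Pnmt, Chga, Chgb, receptors above background, and of each other list up to 4 genes that passed or else the smallest adjusted p. Members and lists were chosen with earlier results of these data known. Alternatives covered filter, probe sets, centring, quantile normalisation, variance model, weights, a 1.2-fold minimum, replicate block and each array left out. Promoters and plots used Python 3.11.15 (pandas 2.3.3, matplotlib 3.10.9).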

Additional observations from a re-analysis of the deposited data

How the results depend on the processing

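Of 17 alternatives, 6 (filters, probe sets, variance trend, replicate block and minimum fold) leave the member differences unchanged by construction. In the other 11 all 5 kept their sign, with ranges of -0.26 to -0.16 for Gal, -0.22 to -0.13 for Resp18, -0.09 to -0.02 for Npy, -0.14 to -0.04 for Cartpt and 0.10 to 0.17 for Penk (log2). For Npy, Penk, Gal and Resp18, whose groups did not overlap, leaving out or weighting arrays could not reverse the sign. For these genes only centring and quantile normalisation could have done so. The count of members passing the test stayed at 0 in 15 of the 17 and was 2 (Gal and Resp18) with a variance trend and robust prior, where 1261 of all probe sets passed, and 2 (the same genes) with array weights, where 1665 passed, against 566. Of the processing genes, 1 (Pcsk1n) passed with the filter at a log2 value of 7, and 2 (Pcsk1n and Rab3a) with a variance trend and again 2 with array weights. Array weights also gave 1 receptor (Vipr1) and 2 other precursors (Pyy and Ucn2). Leaving out each array gave 0 to 3 other precursors, the 3 (Cort, Hcrt and Ucn2) without control array 1, and 0 members, receptors and processing genes. The cause of these shifts was not tested. With the 95th percentile or the median of the sensory receptors as background, all 5 members lay above it on every array.

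With the replicate block (array number as a block), 0 members passed and 224 of all probe sets. Deviations of same-numbered arrays from their group means correlated at -0.357, -0.169 and -0.118. With means of 3 arrays, these values cannot decide whether the numbers pair the arrays. The 3 arrays per group and the unknown pooling limit all statements. The smallest difference that passed in the fit without a block was 0.197 on the log2 scale. This is not a limit of detection, since passing also depends on the spread of each probe set. Gal (-0.203) and Pcsk1n (-0.228) differed by more and did not pass in that fit.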

Other observations

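Lists of cells that could also hold these peptides were counted. Of 11 neuron genes tested, 0 passed (limma, 3 at an unadjusted p under 0.05), with a median of -0.05, and the smallest adjusted p was that of Uchl1, a ubiquitin hydrolase of neurons and endocrine cells (-0.17, limma adjusted p = 0.153). Of 6 genes of Schwann and sustentacular cells, the glia of nerve and medulla, 1 was lower and 1 higher. Erbb3, the neuregulin receptor of Schwann cells, fell by 0.32 (limma adjusted p = 0.0156), and Mbp, a myelin protein, rose by 0.24 (limma adjusted p = 0.0312). The call of Erbb3 was lost without control array 3 (limma adjusted p = 0.0582), CGP array 2 (0.0784) or CGP array 3 (0.0718), and that of Mbp without any array but control array 1 (0.0813 to 0.150). Of 12 cortical markers, Cyp11b2, aldosterone synthase, rose by 0.50 (limma adjusted p = 0.00144), and it passed with each of the 6 arrays left out in turn (limma adjusted p up to 0.0138).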
